A study of Mus musculus with 2 samples.

Results

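The genes described here build, bundle, cap and anchor actin filaments in mouse dendritic cells, and include Fscn1, which encodes the filament bundler fascin. The set holds 46 genes chosen by name and looked up by Entrez Gene number, of 18090 genes with a read in either of 2 RNA-seq libraries. All 46 had reads, 45 of them on both sides, and 45 matched a current symbol while Diap1 matched as a synonym of Diaph1. One library came from immature and 1 from mature dendritic cells, all grown from C57BL/6 bone marrow for 6 days with GM-CSF (10 ng/ml) and IL-4 (1 ng/ml), the growth factors that steer marrow precursors to this fate. The mature cells are those read from the protocol as having had lipopolysaccharide (LPS, a bacterial cell wall component) at 100 ng/ml for 24 h, and both populations were flow-sorted on CD86 and I-Ab, with gates not given in the sources used here. Whether the immature cells stayed in culture for that extra day, and how many animals were pooled, is likewise not given. There was 1 library per state, so no value below has a replicate error and no test between the states was made.

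Actin filaments grow from monomers that profilin delivers, branch where the Arp2/3 complex is switched on by proteins of the WASP and WAVE families, and are taken apart by cofilin and gelsolin. Bundlers such as fascin lay filaments side by side in the slender protrusions of a cell, and ezrin, radixin and moesin tie filaments to the membrane. Immature dendritic cells use this machinery to engulf material and crawl through tissue, and mature ones to extend dendrites towards T cells; fascin is a long-known marker of the mature state.

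Each gene has a count of uniquely placed reads and its RPKM, the reads for each kilobase of gene model in 1000000 counted reads, so that levels can be set side by side between genes. The libraries held 7.56 M and 8.07 M counted reads in the order immature and mature, which is also the order of every pair of values below. A gene of 1000 bases with 3 reads would stand at 0.397 and 0.372 RPKM. Ratios are of mature to immature RPKM, turned over where a gene was lower in the mature library, with an exact 95% counting interval in parentheses. These intervals cover counting error only, since each state has 1 library. The reads carry no molecular identifiers and are not independent molecules, so the intervals may understate even that error. Genes were called higher or lower at a 2-fold difference of RPKM after adding 1 RPKM to each value, among 11547 genes that reached 1 RPKM in a library. On that log2 scale the change of genes at low levels is understated.

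Most of the actin machinery was lower in the mature library, while fascin and the 2 MARCKS genes were higher. Of the 44 compared members, 3 were at least 2-fold higher, against a background of 9.05% of all compared genes, a share of 6.82% in the members. At least 2-fold lower were 10 members, or 22.7%, against 11.3% of all compared genes. The ratio lay below 1 for 34 of 44 members and for 48.4% of all compared genes, and the median log2 fold was -0.61 for the members and 0.03 for all. At a 1.5-fold difference 3 members were higher, against 21.4% of all compared genes, and 23 were lower, against 21.7%. The counting interval lay wholly above 1 for 6 members (36.1% of all compared genes) and wholly below 1 for 34 (33.8%), and it spanned 1 for 4. Reads of the 46 genes made up 4.27% (Wilson 95% interval 4.25 to 4.28) of the immature and 2.56% (2.55 to 2.57) of the mature library. Actb alone gave 1.11% and 0.511% of the reads. In bulk RNA, fewer cells of a type and less RNA per cell cannot be told apart.

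The members are abundant genes, with a median of 149.6 and 111.2 RPKM against 10.4 RPKM for all compared genes in each library. Genes that reached 100 RPKM in a library were more often past 2-fold in both directions than all compared genes, and their median fold was lower. A gene can enter this group through the library where it is high. The shares past 2-fold are raised by that and cannot be read as a trait of abundant genes. Among the 890 genes that reached 100 RPKM in a library the median log2 fold was -0.26, 15.1% were at least 2-fold higher and 17.4% at least 2-fold lower. Of the 31 members at that level, 2 were higher and 10 lower, with a median of -0.79. The higher ones, Fscn1 (15.8 and 117 RPKM) and Marcksl1 (56.6 and 137 RPKM), reached it only in the mature library. Of the lower ones, Coro1a (295 and 89.1 RPKM) and Vasp (147 and 53.1 RPKM) reached it only in the immature library, the others in both. The level of 100 RPKM was chosen after the data were seen.

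**Figure D1:**
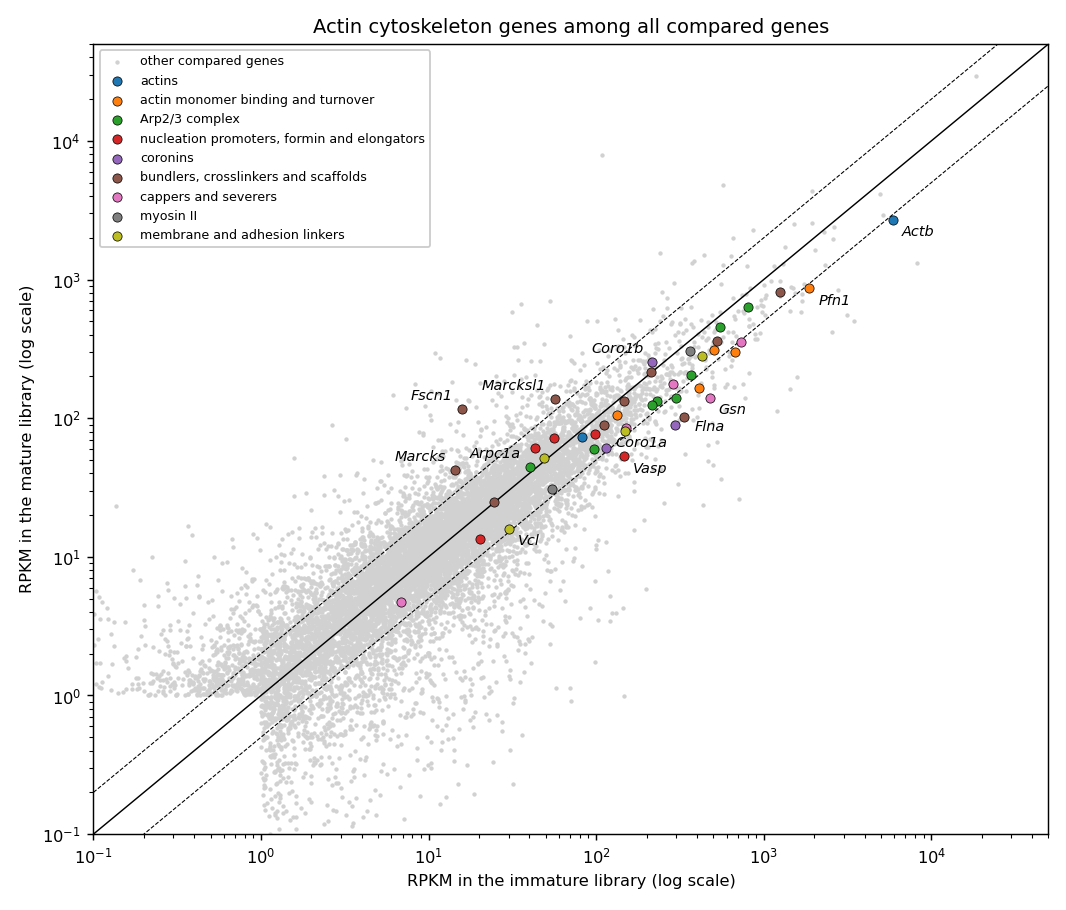
RPKM in the immature library (x axis) against the mature library (y axis), both on log scales, for the 44 compared members (coloured by role) and the other compared genes with reads in both libraries (grey). The solid line marks equal values and the dashed lines a plain 2-fold difference; most members lie below the solid line, and Fscn1, Marcks and Marcksl1 lie above the upper dashed line.

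Sequences upstream of 2 of the higher members are shown first, because Fscn1 and Marcksl1 moved in the same direction against most of the set. RefSeq start sites of GRCm38.p6 gave windows of 300 bases (250 before to 50 after the start) for 41 of the 46 members; Actb, Diap1, Coro1b, Marcks and Lsp1 had no entry. The files were made on another build, mm8, so these coordinates belong to the sequences alone. The 250 upstream bases lie at chr5:142960105-142960354 on the plus strand for Fscn1 and at chr4:129513331-129513580 on the plus strand for Marcksl1. Capitals mark a TATA box (TATAAA), which starts 31 bases before the Fscn1 start site.
Fscn1: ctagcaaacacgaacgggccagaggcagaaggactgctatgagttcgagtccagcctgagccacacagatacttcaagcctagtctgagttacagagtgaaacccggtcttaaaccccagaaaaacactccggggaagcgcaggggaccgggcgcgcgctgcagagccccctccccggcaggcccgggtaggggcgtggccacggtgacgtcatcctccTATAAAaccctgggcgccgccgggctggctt
Marcksl1: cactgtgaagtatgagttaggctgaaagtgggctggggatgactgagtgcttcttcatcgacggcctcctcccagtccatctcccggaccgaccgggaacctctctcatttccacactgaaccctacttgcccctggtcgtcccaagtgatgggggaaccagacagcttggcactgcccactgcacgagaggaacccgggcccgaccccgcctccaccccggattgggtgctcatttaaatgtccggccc
Both upstream stretches are rich in G and C, at 62.4% for Fscn1 and 60.4% for Marcksl1. Neither of these 250-base stretches holds a CArG box, the site of the serum response factor, an NF-kB site or a GC box (GGGCGG) on either strand. The whole windows held a TATA box, on either strand, in 2 of 41 members (Fscn1 and Myh9) and in 15.7% of all 27025 genes with a window. A GC box stood in the whole window of 33 of 41 members, Marcksl1 among them but not Fscn1, and in 38.2% of all genes. The median G and C content was 62.0% in the members' windows and 52.7% in all. The 27025 genes, here and for the elements below, were not limited to genes with reads in these libraries, whereas all members had reads. Searches for the TATA and GC boxes were added after the data were seen.

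The CArG box is the element through which serum response factor drives many actin genes, and it stood in 4 of 41 members (Actg1, Arpc4, Myl6 and Vcl), against 1.81% of all genes. An NF-kB site, the element of the transcription factor that LPS activates, stood in 2 of 41 (Flna and Rdx), against 5.14% of all genes. The stretches below, shown because they are the only matches among the members to these 2 inducible elements, give each match in capitals with up to 10 bases on either side; the 2 overlapping matches of Rdx are shown by the first. They lie at chr11:120348566-120348595 (minus strand), chr6:113377863-113377882 (plus), chr10:128493040-128493069 (minus), chr14:20929161-20929190 (plus), chrX:74246665-74246694 (minus) and chr9:52047851-52047880 (plus).
Actg1: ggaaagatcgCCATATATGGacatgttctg
Arpc4: CCTAATTTGGtgcccaacct
Myl6: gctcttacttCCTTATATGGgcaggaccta
Vcl: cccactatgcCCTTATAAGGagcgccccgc
Flna: ggggcgttgtGGGGCATTCCaacgggaggg
Rdx: cggctgccgaGGGGATCCCCcctcctcccg
Of the 3 higher members, Fscn1 and Marcksl1 held neither element and Marcks had no window to search. The log2 folds of the 6 genes were -0.17, -0.68, -0.79, -0.88, -1.69 and 0.08 in the order shown. A match of letters is a description and does not show that a factor binds there.

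Actin itself was lower. Actb (Entrez Gene 11461), which encodes the beta-actin of non-muscle cells, had 83899 and 41233 reads, or 5872 and 2704 RPKM. It was the gene with the third highest RPKM in the immature library and ranked 7 in the mature one, and was 2.17-fold lower (2.15 to 2.2). Actg1, the gene of gamma-actin, stood at 82.0 and 72.9 RPKM, 1.13-fold lower (1.04 to 1.22), but its reads covered only 3.26% and 3.21% of its length. Where unique reads reach so little of a gene, as can happen to genes with near-identical copies, its level is uncertain and the balance of the 2 actins cannot be read from these values.

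The monomer-binding proteins were lower as well, with 3 of 5 members past 2-fold, against 11.3% of all compared genes, and a median log2 fold of -1.12. Pfn1 (18643), which encodes the profilin that feeds monomers to growing ends, stood at 1874 and 862 RPKM, 2.17-fold lower (2.11 to 2.24). Cfl1 (12631), the cofilin that severs and depolymerises old filaments, stood at 674 and 301 RPKM, 2.24-fold lower (2.14 to 2.34). Both factors were close to that of Actb. Tmsb10, a thymosin that sequesters monomers, stood at 413 and 165 RPKM, 2.51-fold lower (2.31 to 2.72), over 27.0% and 34.2% of its length. Its relative Tmsb4x, at 133 and 105 RPKM, was 1.26-fold lower (1.12 to 1.41), but with reads over 8.36% and 14.6% of its length. Cap1, the cyclase-associated protein that recycles cofilin-bound monomers, stood at 506 and 309 RPKM, 1.64-fold lower (1.59 to 1.7). All of these but Cap1 are short genes, and short genes as a whole were lower: in the 2312 shortest compared genes, up to 1445 bases, the median log2 fold was -0.23. With that length trend removed, the log2 folds of Pfn1, Cfl1 and Tmsb10 were -0.89, -0.98 and -0.97, no longer past 2-fold, and that of Tmsb4x was 0.04.

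The Arp2/3 complex, which nucleates branches, was lower by smaller factors. All 8 members that belong to the complex were compared. At least 2-fold lower was 1, near the share of 11.3% in all compared genes, and 0 were higher. The ratio was below 1 for 7, against 48.4% of all compared genes, and the median log2 fold was -0.73. The actin-related core genes Actr2 and Actr3 kept step: Actr2 stood at 231 and 133 RPKM, 1.74-fold lower (1.67 to 1.81), and Actr3 at 368 and 206 RPKM, 1.79-fold lower (1.72 to 1.86). Set against each other, their ratios differed by a factor of 0.971 (0.919 to 1.03), within counting error. The scaffold subunit Arpc2 was the most abundant of the complex at 806 and 629 RPKM, 1.28-fold lower (1.24 to 1.32), and Arpc3 followed at 551 and 454 RPKM, 1.21-fold lower (1.16 to 1.27). Arpc4, the partner of Arpc2 in the core, stood at 97.2 and 60.4 RPKM, 1.61-fold lower (1.49 to 1.74), and Arpc5 at 217 and 125 RPKM, 1.73-fold lower (1.64 to 1.84). Arpc5l, the paralog of Arpc5 and no member, stood at 44.9 and 44.1 RPKM, a ratio of 0.982 (0.859 to 1.12) whose interval spans 1. Genes of this 1 complex thus spanned from 40.1 to 806 RPKM in the immature and from 44.4 to 629 RPKM in the mature library.

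The alternative forms of the complex's first subunit went apart. Arpc1b (11867), the form that prevails in blood cells, stood at 301 and 140.2 RPKM, 2.15-fold lower (2.03 to 2.28). Arpc1a (56443), its broadly expressed paralog, stood at 40.1 and 44.4 RPKM, a ratio of 1.11 (0.978 to 1.25) whose interval spans 1. Arpc1b made up 88.2% of their summed RPKM in the immature library and 76.0% in the mature one, and the ratio of Arpc1a exceeded that of Arpc1b by 2.38-fold (2.08 to 2.72).

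The activators of the complex did not share its direction throughout. Wasf2, which encodes the WAVE protein that drives lamellipodia, stood at 56.2 and 72.1 RPKM, 1.28-fold higher (1.2 to 1.36), and Wipf1, the partner that stabilises WASP, at 43.2 and 60.6 RPKM, 1.4-fold higher (1.31 to 1.5). Was, the gene of the WASP protein of blood cells, stood at 20.2 and 13.5 RPKM, 1.5-fold lower (1.26 to 1.78), with reads over 46.9% and 45.5% of its length. Of these 3 genes none was past 2-fold. Diap1, a formin that grows unbranched filaments, stood at 98.8 and 77.0 RPKM, 1.28-fold lower (1.22 to 1.35). The elongator Vasp (22323), which shields growing ends from cappers, was the member of the group past 2-fold, at 147 and 53.1 RPKM and 2.77-fold lower (2.57 to 2.98). Its relative Evl had 2 and 0 reads; 3 reads would be 0.169 RPKM in the latter, so no fold is given.

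Coronins, which debranch Arp2/3 networks and work with cofilin, divided by paralog. Coro1a (12721), the coronin of leukocytes, had 3605 and 1163 reads, 295 and 89.1 RPKM, and was 3.31-fold lower (3.1 to 3.54). Coro1c stood at 115 and 60.8 RPKM, 1.89-fold lower (1.78 to 2.01). Coro1b (23789), in contrast, stood at 216 and 253 RPKM, 1.17-fold higher (1.11 to 1.23). Coro1a was the most abundant of the 3 in the immature library, with 47.1% of their summed RPKM, and Coro1b in the mature library, with 62.8%. The ratio of Coro1b exceeded that of Coro1a by 3.87-fold (3.57 to 4.2).

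**Figure D2:**
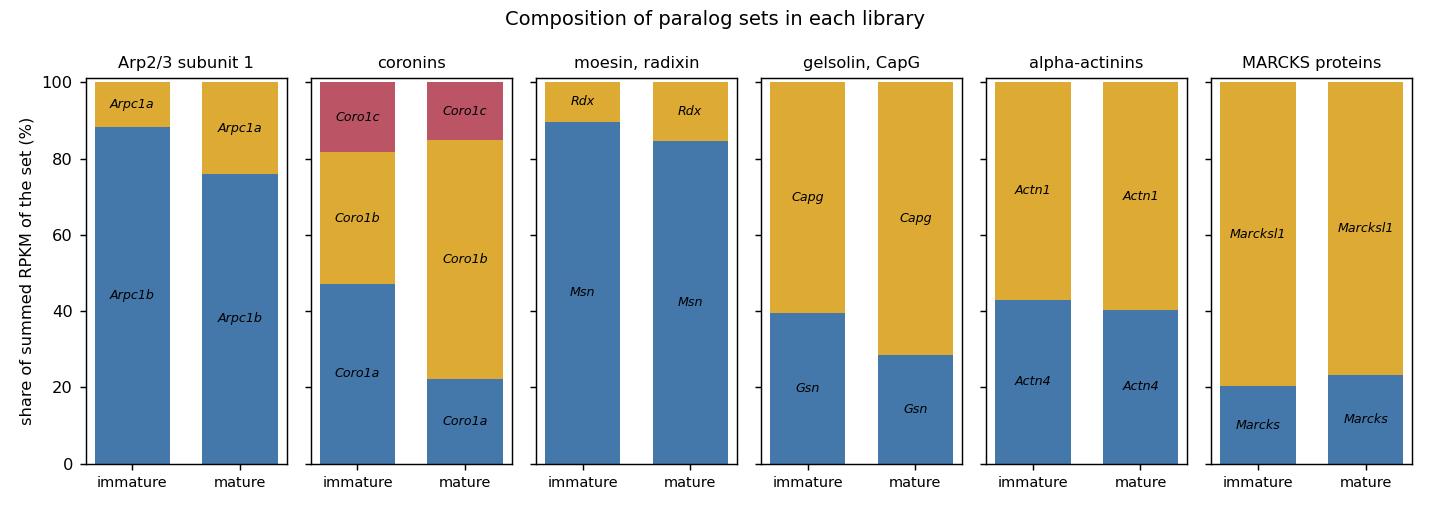
Share of each gene in the summed RPKM of its set (y axis, %), in the immature and the mature library, for 6 sets of related members with reads over at least 50% of their length. Coro1a has 47.1% and 22.1% of the coronins and Arpc1b 88.2% and 76.0% of its pair, while the shares of Marcks (20.3% and 23.4%) and Actn4 (43.0% and 40.3%) lie closer together.

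Bundlers, crosslinkers and scaffolds held all 3 of the higher members and were the most divided group, with 1 of 10 at least 2-fold lower and 6 within 2-fold. Of all compared genes 9.05% were at least 2-fold higher and 11.3% lower. Fscn1 (14086) had 318 and 2519 reads, 15.8 and 117 RPKM, and was 7.42-fold higher (6.6 to 8.37) in the mature library, with reads over 92.0% and 99.5% of its length. It was the largest change in either direction among the compared members. Marcks (17118), whose product crosslinks filaments under the membrane and holds phosphoinositides there, stood at 14.4 and 42.1 RPKM, 2.92-fold higher (2.62 to 3.25). Its paralog Marcksl1 (17357) stood at 56.6 and 137 RPKM, 2.43-fold higher (2.22 to 2.65). The ratio of Marcksl1 was 0.833 of that of Marcks (0.726 to 0.955). That interval lies below 1, but the difference was small beside the change of either gene.

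The abundant crosslinkers did not follow fascin. Flna (192176), which encodes the filamin that ties filaments into orthogonal gels and to integrins, had 21111 and 6945 reads, 333 and 103 RPKM, and was 3.24-fold lower (3.16 to 3.33). Lcp1, the plastin of leukocytes and the most abundant bundler, stood at 1254 and 815 RPKM, 1.54-fold lower (1.51 to 1.56). Fscn1 was thus far below Lcp1 in both libraries. Lsp1, a filament-binding protein of leukocytes, stood at 523 and 357 RPKM, 1.46-fold lower (1.41 to 1.51). The alpha-actinins differed little: Actn1 stood at 148 and 133 RPKM, 1.11-fold lower (1.07 to 1.16), and Actn4 at 111 and 89.6 RPKM, 1.24-fold lower (1.18 to 1.31). Swap70, at 24.7 and 24.8 RPKM, had a ratio of 1.01 (0.91 to 1.11), and Iqgap1, a scaffold of Rac1 and Cdc42, had a ratio of 1.01 (0.987 to 1.04) at 213 and 216 RPKM. The direction of Swap70 and Iqgap1 turned under TMM scaling, a trimmed mean of gene ratios, to log2 folds of -0.03 and -0.02, and with the length trend removed, to -0.10 and -0.24.

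Cappers and severers were lower in 5 of 5 cases, 2 of them past 2-fold. Among all compared genes the ratio was below 1 for 48.4%, and 11.3% were at least 2-fold lower. Gsn (227753), the gene of gelsolin, which severs filaments in response to calcium and caps them, had 9314 and 2917 reads, 475 and 139 RPKM. At 3.41-fold lower (3.27 to 3.55) it was the farthest below 1 of the compared members. Capg, a related capper without severing activity, stood at 727 and 352 RPKM, 2.07-fold lower (1.98 to 2.15). Capg fell short of 2-fold when RPKM was rescaled to a common sum (log2 fold -0.96) and with the length trend removed (-0.86). The heterodimeric capping protein was lower on both sides: its alpha subunit gene Capza2 stood at 150.1 and 84.9 RPKM, 1.77-fold lower (1.65 to 1.89), and its beta subunit gene Capzb at 286 and 176 RPKM, 1.62-fold lower (1.54 to 1.71). Capza1, at 6.85 and 4.74 RPKM, was covered over only 15.3% and 13.6% of its length, so its value is uncertain.

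Non-muscle myosin II and the linkers lay within 2-fold. Myh9, the heavy chain of the contractile motor, stood at 365 and 303 RPKM, 1.2-fold lower (1.18 to 1.23). Its light chain gene Myl6 stood at 54.4 and 31.0 RPKM, 1.76-fold lower (1.44 to 2.15), with 16.8% of its length covered in each library. Of the linkers of filaments to the membrane, Msn, the gene of moesin, prevailed at 427 and 282 RPKM, 1.52-fold lower (1.47 to 1.56). Rdx, the gene of radixin, had a ratio of 1.06 (0.991 to 1.13) at 48.8 and 51.6 RPKM, and the ratio of Rdx exceeded that of Msn by 1.6-fold (1.49 to 1.72). With the length trend removed the direction of Rdx turned, to a log2 fold of -0.10. Ezr, the gene of ezrin, had 17 and 6 reads over 3.13% and 1.92% of its length and did not reach 1 RPKM in either library. The integrin linkers Tln1 (talin) and Vcl (vinculin) were lower side by side: Tln1 stood at 149 and 81.3 RPKM, 1.83-fold lower (1.77 to 1.9), and Vcl at 30.2 and 15.9 RPKM, 1.9-fold lower (1.73 to 2.09). Both are long genes and passed 2-fold with the length trend removed, at log2 folds of -1.15 and -1.12.

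**Figure D3:**
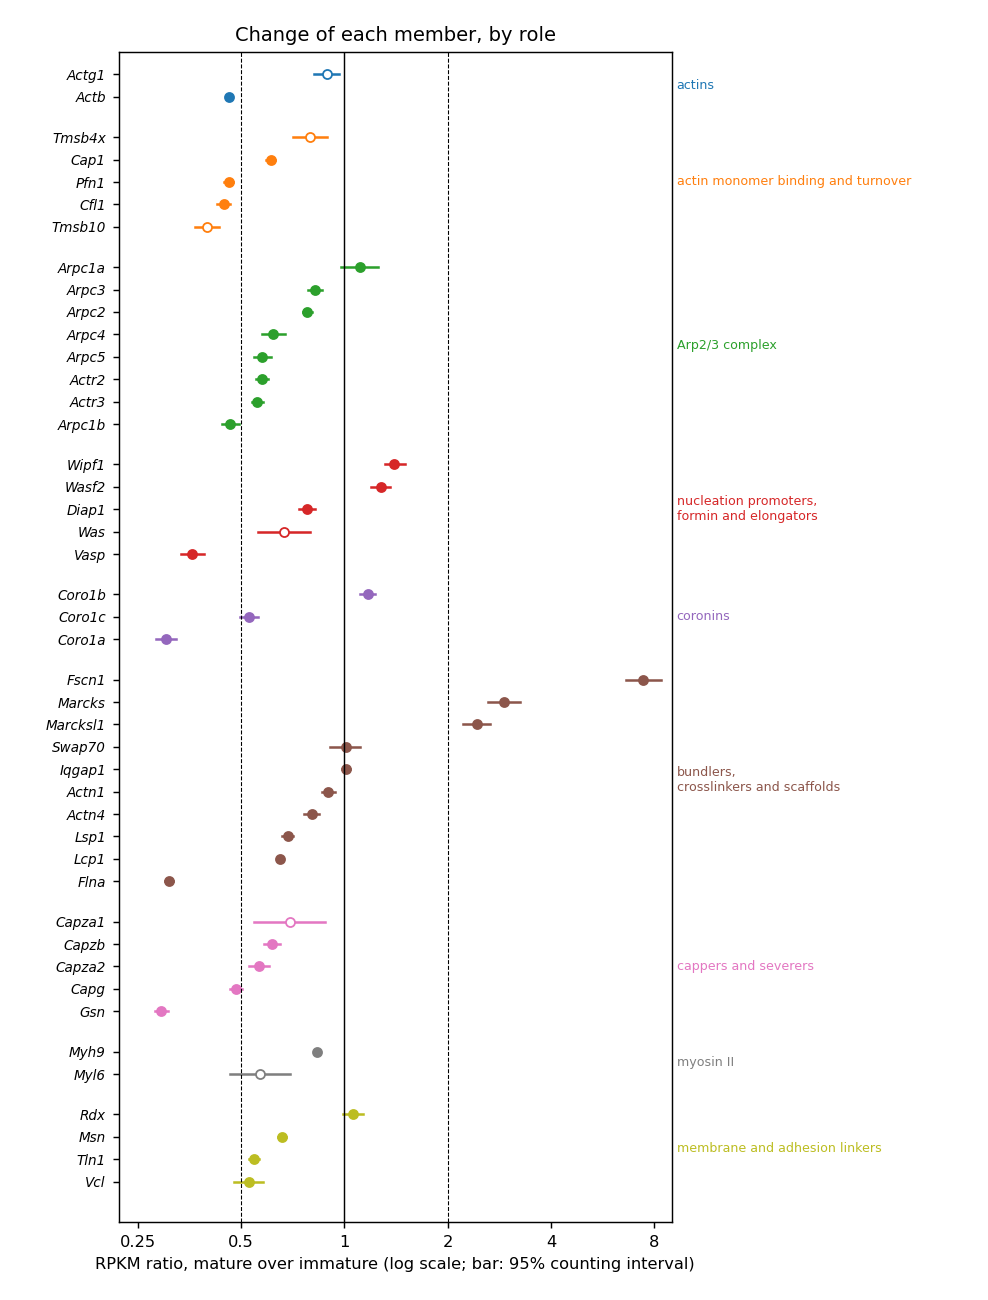
Ratio of mature to immature RPKM (x axis, log scale) for each of the 44 compared members, grouped by role; bars are 95% counting intervals and open circles mark members with reads over less than 50% of their length in both libraries. Dashed lines mark plain ratios of 0.5 and 2; Fscn1, Marcks and Marcksl1 lie right of the upper line, and Gsn, Coro1a and Flna lie farthest left.

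Other genes of the actin system, from lists drawn up beside the members, are given beside the same background of 9.05% higher and 11.3% lower. Of 107 such genes, 102 had reads and 94 were compared; 9 were at least 2-fold higher and 20 lower, with a median log2 fold of -0.19. Among genes of monomers and filament turnover (17 compared, 2 higher and 3 lower), Ssh1, the phosphatase that activates cofilin, stood at 9.37 and 42.7 RPKM, 4.56-fold higher (3.95 to 5.29). Cfl2, the muscle-type cofilin, was 2.26-fold higher (1.79 to 2.87), from 4.63 to 10.4 RPKM. Cotl1, a coactosin that binds filaments, stood at 818 and 213 RPKM, 3.84-fold lower (3.68 to 4.0), and Aif1 and the monomer binder Twf2 were 10.1-fold (6.38 to 17.0) and 2.06-fold lower (1.85 to 2.3).

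Nucleation genes outside the set (24 compared, 4 higher and 2 lower) included higher values of Spire1, a nucleator, at 3.69-fold (3.15 to 4.35), Nckap1, a subunit of the WAVE complex, at 3.95-fold (3.0 to 5.26), and the formin Fmnl2 at 3.13-fold (2.85 to 3.45). Its relative Fmnl3 was 3.29-fold lower (2.88 to 3.75), and the formin Diaph3 4.41-fold lower (3.41 to 5.77). Nckap1 stood at only 2.54 and 10.0 RPKM. Its paralog Nckap1l was far more abundant, at 156 and 145 RPKM, with a ratio of 0.93 (0.896 to 0.966). Other crosslinkers, cappers and tropomyosins (24 compared, 2 higher and 7 lower) held the tropomyosin Tpm1, 2.36-fold higher (2.07 to 2.71), and Scin, a gelsolin relative, 2.2-fold higher (1.79 to 2.72). Svil, Iqgap2 and Iqgap3 were 3.43-fold (3.08 to 3.83), 5.8-fold (4.19 to 8.19) and 4.33-fold lower (3.66 to 5.15). In the myosins (14 compared, 1 higher and 4 lower), Mylk, the kinase that switches on myosin II, was 6.51-fold higher (5.4 to 7.91), from 2.13 to 13.9 RPKM. Myo7a, Myo1d and Myo1f were 5.34-fold (4.6 to 6.22), 4.88-fold (3.33 to 7.35) and 2.39-fold lower (2.29 to 2.5).

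Linkers and adhesion plaque genes (15 compared, 0 higher and 4 lower) had counting intervals wholly below 1 for 9 genes and wholly above 1 for 4. Parvg, Zyx and Fermt3, which all act at integrin adhesions, were 6.46-fold (5.65 to 7.4), 3.19-fold (3.04 to 3.34) and 2.11-fold lower (1.98 to 2.24).

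**Figure D4:**
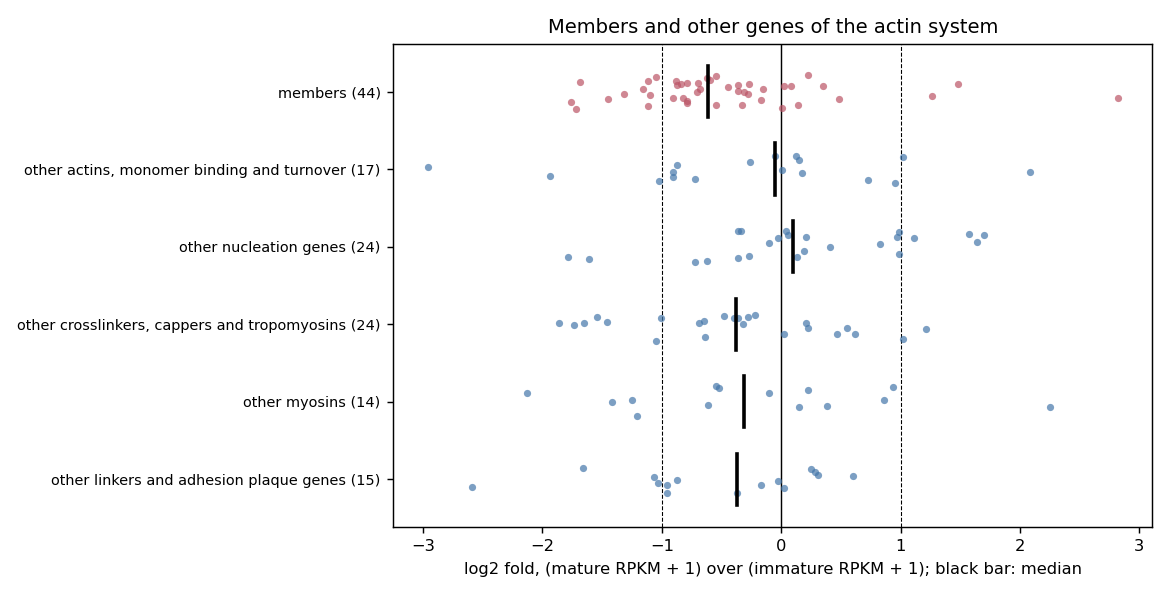
Log2 fold after adding 1 RPKM (x axis) of the compared members and of 5 lists of other actin genes, 1 point per gene, with the number of genes in parentheses and the median as a black bar. Dashed lines mark 2-fold; the members' median is -0.61 and the lists' medians lie between -0.38 and 0.10.

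Markers of granulocytes, macrophages and division were mostly lower, as were the actin genes, several of which (Coro1a, Lcp1, Lsp1 and Capg among them) are also expressed in other leukocytes. In the mature library 8 of 12 markers of neutrophils and their precursors were at least 2-fold lower, with a summed level of 8418 and 2181 RPKM, and so were 8 of 12 macrophage and monocyte markers, at 1445 and 724 RPKM. The ratio was above 1 for 1 gene of each list, Mmp9, a granule protease gene of neutrophils, at 1.03 (0.978 to 1.08), and the macrophage marker Adgre1, at 1.33 (1.25 to 1.4). All 12 cell cycle markers were at least 2-fold lower, at 657 and 60.0 RPKM in sum. The share at least 2-fold lower was 11.3% in all compared genes. Any part of the cells behind these 3 marker lists in the lower actin genes was not tested. Stromal and smooth muscle markers summed to 11.1 and 7.64 RPKM, with Col1a1, Col1a2 and Col3a1 below 1 RPKM and Des at 0 reads in both libraries. Of 8 platelet markers, summing to 94.6 and 138 RPKM, 4 were compared. Pf4 stood at 71.2 and 117 RPKM and Ppbp at 17.9 and 19.6 RPKM. Itga2b, at 3.15 and 0.973 RPKM, was 3.24-fold lower (2.08 to 5.21). Treml1, at 1.95 and 0.914 RPKM, had a ratio of 0.468 (0.185 to 1.1). Gp1ba had 0 reads, and Gp9 and Gp5 had 1 and 3 immature reads and 0 mature reads. The 8 lymphoid markers summed to 7.46 and 13.0 RPKM and the erythroid markers to 1.51 and 0.341 RPKM. The labelled cell type showed in Itgax, the gene of CD11c, at 407 and 148 RPKM. The class II genes H2-Ab1, at 1256 and 978 RPKM, and H2-Aa, at a ratio of 1.09 (1.06 to 1.12), encode I-Ab. Both populations were sorted on I-Ab, so the levels of these genes are no separate check of the cell type. The dendritic cell genes Zbtb46 and Flt3 were at lower levels and higher in the mature library, at 4.51 and 13.2 RPKM and at 0.722 and 3.28 RPKM. The mature state showed in Ccr7, at 31.5 and 578 RPKM, and Cd83, at 20.2 and 179 RPKM.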

How the data were processed

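Per the file headers, the authors deposited 4 values per gene and library: a count of uniquely placed reads, a gene length, the coverage of that length in percent, and RPKM. The counts are not normalized, and the deposited RPKM equalled reads per kilobase and per 1000000 counted reads within a relative deviation of 1.07e-07. The build is mm8 per the submitters' processing notes; the aligner, annotation and strandedness are not given in the sources that were used. Genes listed for only 1 library were set to 0 reads in the other. Symbols came from the RefSeq table of GRCm38.p6. Counting intervals of a gene's ratio were exact (Clopper-Pearson, SciPy 1.17.1, Python 3.11.15). Those between 2 genes came from the sample odds ratio of their reads, with a normal approximation on the log scale, and are not exact. TMM factors came from edgeR 4.0.16; no count model was fitted, because each state has 1 library. The length trend was a running median over 501 genes. All members were named; of each list of other actin genes, up to 3 at least 2-fold higher and up to 3 lower. Arpc5l and Nckap1l were named besides, as paralogs of named genes. The members and lists were chosen with earlier results of these data known. The steps were tested on simulated data. Alternatives covered the pseudocount, the filter, the scaling, gene length, the share of the length covered and the fold. One further list of genes is not reported here.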

Additional observations from a re-analysis of the deposited data

How the results depend on the processing

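Members at least 2-fold higher numbered 3 under the pseudocounts of 0.1 and 5 RPKM, no filter, a filter at 5 RPKM, rescaling to a common sum of RPKM, TMM, median of ratios scaling, removal of the length trend, a minimum of 50% of the length covered, and a fold of 1.5; with a filter at 100 RPKM, added after the data were seen, they numbered 2. Members lower numbered between 8 (length trend removed) and 10 at 2-fold, and 23 at 1.5-fold, where 21.7% of all compared genes were lower and 21.4% higher. The members' median log2 fold lay between -0.79 (filter at 100 RPKM) and -0.52 (common sum). With the length trend removed Capg, Cfl1, Pfn1 and Tmsb10 fell short of 2-fold and Tln1 and Vcl passed it; the cause was not tested. No paired analysis was possible because each state has 1 library. Unique reads limit Actg1, Tmsb4x, Evl, Capza1, Myl6 and Ezr, each covered over less than 25% of its length in both libraries.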
